A study of Arabidopsis thaliana with 10 samples.

Results

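Leaves of the oxt6 mutant were compared with leaves of the wild-type on 6 ATH1 arrays, 3 of each, taken by their titles from the 10 arrays of the study. oxt6 plants carry a T-DNA in the first exon of At1g30460 and lack both proteins of that gene, AtCPSF30 and a larger protein in which the same domain is joined to a domain related to YT521-B. Wild-type plants were Columbia without the insertion, and both groups were grown in soil in short days for 30 days, with no stress agent given in the labels. oxt6 is 1 insertion line whose plants are dwarf on soil, and leaves of several plants were pooled for each array. The remaining arrays came from complemented lines and enter no comparison below. In whole leaves, fewer cells of a type and less RNA per cell cannot be told apart.

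CPSF30 is an RNA-binding zinc finger subunit of the complex that recognizes the poly(A) signal, cuts the pre-mRNA and hands it to poly(A) polymerase. The position of the cut sets the 3' end of the mRNA, and with it the 3' untranslated region that governs stability and translation. Probe sets of the ATH1 array lie mostly near the annotated 3' end of a gene, so a lower or higher value can come from a changed amount of mRNA or from an mRNA that ends elsewhere, and a single probe set cannot tell these apart.

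The values are intensities on a linear scale with a lowest value of 16. Median intensity was 40.9, 60.5 and 46.4 on the oxt6 arrays, against 50.8, 49.0 and 57.9 on the wild-type arrays, and the number of probe sets at the lowest value was 2920, 11 and 867 against 756, 1199 and 237. Correlations of log2 values were 0.950 to 0.983 within oxt6, 0.964 to 0.982 within the wild-type and 0.910 to 0.937 between groups. The array of oxt6 replicate 1 stood apart, lying 2-fold or more above both other oxt6 arrays at 384 of the 12000 probe sets tested and 2-fold or more below both at 309, whereas for any other array neither count was above 76. Averaged over 3 control genes (actin, GAPDH, ubiquitin), log2 signal at the 3' end was above that at the 5' end by 1.09, 2.88 and 2.75 on the oxt6 arrays, against 2.19, 2.0 and 2.37 on the wild-type arrays. The group means of this 3'/5' signal differed by 0.06 (p = 1.0, exact permutation test, two-sided). The probe set of At1g30460, which reads only the mRNA of the larger protein, was at 27.1, 54.7 and 38.1 in oxt6, against 39.2, 38.7 and 71.2 in the wild-type. The groups overlapped, the difference of -0.30 on the log2 scale had p = 0.4 in the same exact permutation test, and the probe set was too dim to be tested, so it does not check the genotype. Among leaf markers, 1 of 5 had a named probe set (RCA). Of root markers 2 of 5 were named, and PYK10, a beta-glucosidase abundant in roots, read 194.2, 179.0 and 204.9 in oxt6, against 77.1, 129.2 and 91.2 in the wild-type (log2 change 0.98 ± 0.22, adjusted p = 0.00866, but not past the test without wild-type replicate 1), while EXPA7, an expansin of root hairs, was too dim to be tested. Of guard cell markers 1 of 3 was named (FMA), too dim to be tested, and no marker of flowers, the shoot apex or seeds was named.

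In oxt6, 2999 of the 12000 brightest probe sets differed from the wild-type at an adjusted p under 0.05, or 25.0%. Of these, 1723 were higher (14.4% of those tested) and 1276 lower (10.6%), and 1453 differed by 2-fold or more, 929 higher (7.74%) and 524 lower (4.37%). Changes of 4-fold or more were found at 78 higher and 62 lower probe sets, so the large changes, like the small ones, ran in both directions. The highest and the lowest log2 change among called probe sets were 3.35 and -4.03. The 3 oxt6 values lay outside the range of the 3 wild-type values at 5067 probe sets (42.2%), above it at 2417 (20.1%) and below it at 2650 (22.1%). The median over all probe sets tested was -0.08 on the log2 scale. With each array centred on its median this median was 0.02, and 2011 probe sets were higher (16.8%) and 968 lower (8.07%), so that 67.5% of the called probe sets were higher in oxt6, in place of 57.5%. Without oxt6 replicate 1, 4216 probe sets (35.1%) were called. Without oxt6 replicate 3 the test called 1743 probe sets, and without wild-type replicate 1 it called 1932.

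**Figure D1:**
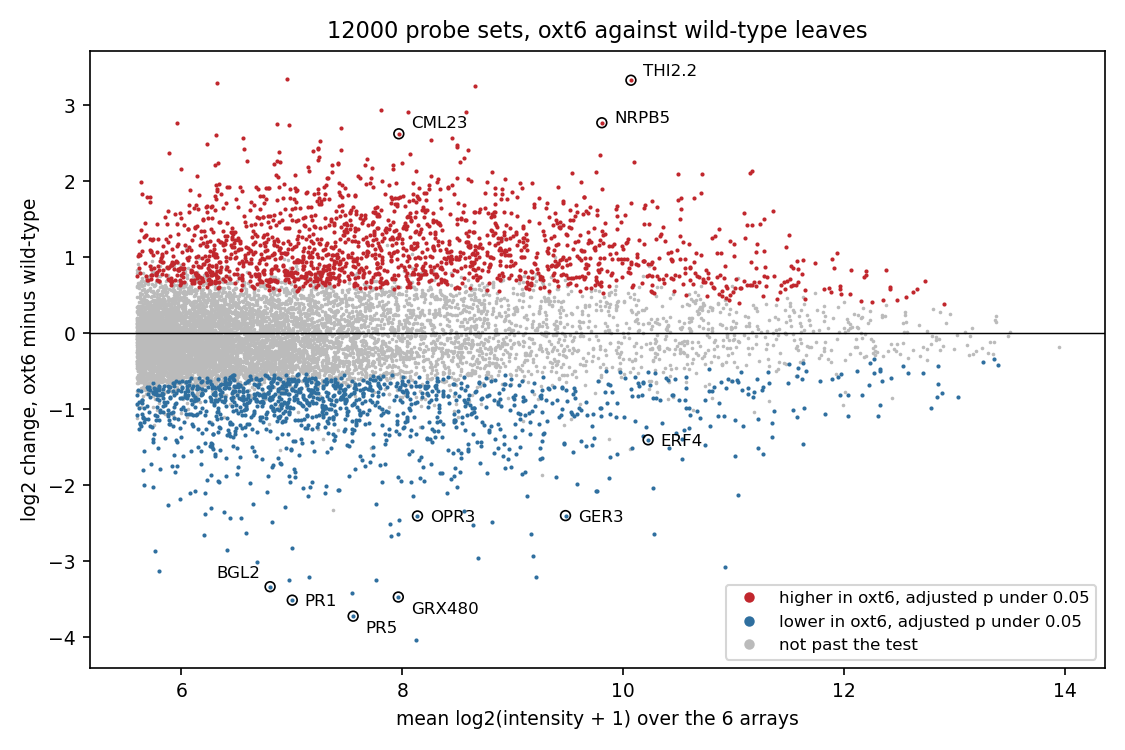
Log2 change in oxt6 against wild-type leaves (vertical axis) and mean log2(intensity + 1) over the 6 arrays (horizontal axis) for 12000 probe sets, with the 1723 higher and 1276 lower probe sets of the test in colour and 10 genes named. PR5, PR1, GRX480 and BGL2 lie near the lower edge of the cloud, and THI2.2 and NRPB5 stand at its upper edge at high intensity.

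Among lists with at least 5 probe sets tested, the lowest median change in oxt6 leaves was that of the salicylate response. Salicylate is the plant hormone of resistance to biotrophic pathogens, and its level is read by NPR1, which switches on the genes of the pathogenesis-related (PR) proteins. Of 8 probe sets tested for regulators and outputs of this pathway, 7 fell in oxt6 and none rose, where 10.6% of all probe sets fell, and the median log2 change was -2.79, against -0.08 over all probe sets. The list holds 24 genes, of which 9 have a named probe set here.

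PR1, the standard marker of this response, read 35.9, 43.3 and 32.6 in oxt6 leaves, against 442.0, 508.3 and 360.5 in wild-type leaves (log2 change -3.51 ± 0.21, SE, adjusted p = 1.25e-05). PR5, a thaumatin-like protein, read 51.0, 58.3 and 44.0 in oxt6, against 638.0, 847.9 and 587.5 in the wild-type (log2 change -3.72 ± 0.21). BGL2 (PR2), a glucanase that cuts fungal cell walls, read 43.9, 37.6 and 24.1, against 372.0, 368.4 and 323.5 (log2 change -3.34 ± 0.23). For these 3 PR genes every wild-type value lay far above every oxt6 value. GRX480, a glutaredoxin that binds the TGA factors through which NPR1 acts, was at 57.4, 79.0 and 89.3 in oxt6, against 891.9, 841.6 and 763.1 in the wild-type (log2 change -3.47 ± 0.21, adjusted p = 1.25e-05).

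Regulators upstream of these genes were also measured. EDS1, a lipase-like regulator needed for salicylate accumulation after pathogen recognition, was at 33.4, 58 and 46.7 in oxt6, against 254.0, 260.9 and 154.3 in the wild-type (log2 change -2.25 ± 0.27). EDS1 has a close paralog, AT3G48080, whose probe set fell as well (log2 change -1.73, adjusted p = 8.42e-04), and signal shared by such copies cannot be assigned. NPR1 itself was at 142.8, 192.8 and 187.2, against 294.3, 301.3 and 250.1 (log2 change -0.70 ± 0.20, adjusted p = 0.0272), groups that did not overlap, although the call was lost without oxt6 replicate 3, without wild-type replicate 1 or 2 and with each array centred on its median. WRKY53, a transcription factor of senescence and defense, was at 139.0, 92.7 and 105.0, against 439.1, 491.6 and 203.7 (log2 change -1.67 ± 0.32). SAG101, a partner of EDS1, had a log2 change of -0.67 and did not pass (adjusted p = 0.111). EDS1 and NPR1 were picked out after their values were seen.

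The wider class of defense-related genes, which the study assembled for these arrays and which is therefore not independent evidence, had 52 probe sets tested. Of these, 20 fell in oxt6 (38.5%, against 10.6% of all probe sets) and 1 rose (1.92%, against 14.4%). The median log2 change of the class was -0.50. Its lower members included AT1G57630, a putative TIR-class resistance protein (log2 change -3.41 ± 0.40), and the receptor-like proteins RLP41 (-2.30 ± 0.23) and RLP23 (-2.1 ± 0.23), of which RLP23 is a cell-surface receptor for a peptide shared by microbial toxins. RLP41 read 28.4, 32.8 and 41.2 in oxt6, against 207.1, 175.6 and 136.5 in the wild-type, and RLP23 read 28.8, 42.7 and 25.8, against 126.8, 145.9 and 144.6, both picked out after their values were seen. Other members did not pass the test: SNC1, a resistance protein of the TIR class, had a log2 change of -0.39 and the salicylate receptors NPR3 and NPR4 of -0.21 and 0.40. Without wild-type replicate 1, 13 members were lower, and without oxt6 replicate 1, 5 were higher.

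CHI, WAK1, RLK and ACA8 are outside these lists and were named after their values were seen. CHI, a putative chitinase, was at 34.1, 35.1 and 39.1 in oxt6, against 190.4, 228.1 and 151.2 in the wild-type (log2 change -2.35 ± 0.21). WAK1, a kinase that ties the cell wall to the membrane and binds pectin, was at 35.9, 33.6 and 27.2, against 113.7, 129.3 and 90.2 (log2 change -1.75 ± 0.22). RLK, the lectin receptor kinase LecRK-IV.1, was at 172.0, 114.8 and 110.1, against 576.5, 599.5 and 544.4 (log2 change -2.14 ± 0.21). ACA8, a calcium pump of the plasma membrane, was at 147.8, 192.7 and 179.6, against 573.1, 599.4 and 686.2 (log2 change -1.84 ± 0.19). The values of these 4 genes did not overlap between groups, as at 42.2% of all probe sets tested, and each passed in every alternative in which it was tested.

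Not all antimicrobial genes were lower. THI2.2, which encodes a thionin, a small cysteine-rich peptide that permeates microbial membranes, was at 3646.5, 3539.0 and 3066.9 in oxt6, against 386.5, 291.7 and 342.0 in the wild-type. Its log2 change of 3.33 ± 0.17 (adjusted p = 1.24e-05) made it the second highest of the named genes. AT4G16880, annotated as related to disease resistance proteins, was the highest, at 447.4, 331.8 and 416.8 in oxt6, against 55.2, 50.6 and 19.3 in the wild-type (log2 change 3.35 ± 0.35), and the only member of the defense-related class that rose. Of the other thionins and defensins tested, 2 of 7 fell, where 10.6% of all probe sets tested fell. They were the defensin-like LCR69 (log2 change -0.68 ± 0.14) and PDF1.4 (-0.66 ± 0.20), of which PDF1.4 lost the call without oxt6 replicate 3 or without any 1 wild-type array.

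**Figure D2:**
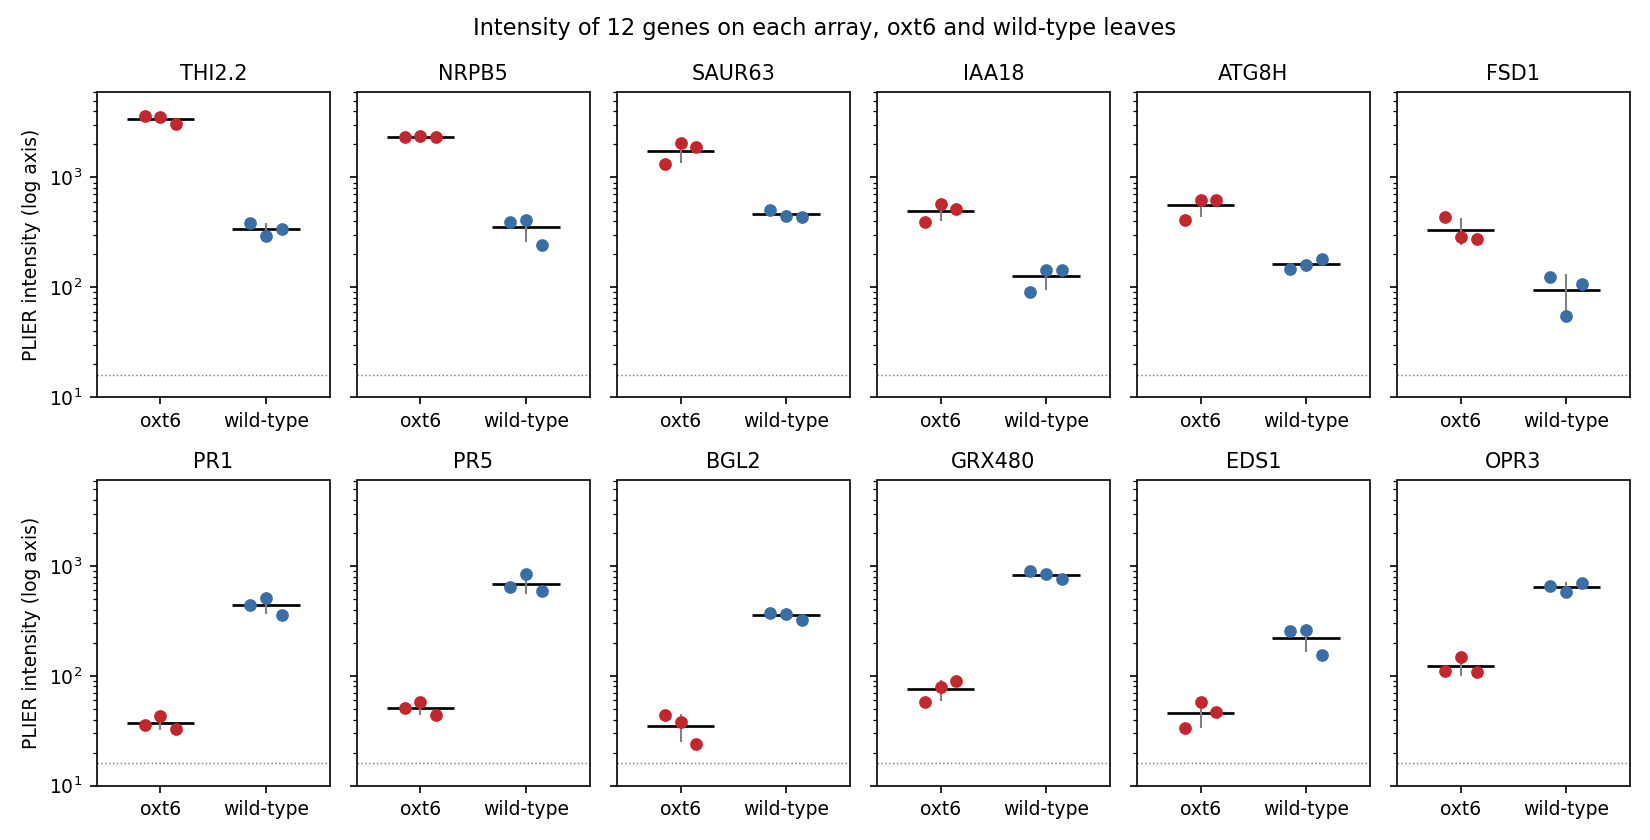
PLIER intensity (log axis) of 12 genes on each of the 3 oxt6 and 3 wild-type arrays, with means and SDs as bars and the lowest value of 16 as a dotted line. In the upper row every oxt6 array lies above every wild-type array, as for THI2.2 with 3066.9 or more against 386.5 or less, and in the lower row below it, as for PR1 with 43.3 or less against 360.5 or more.

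Among jasmonate genes, OPR3, which reduces a plastid-made precursor of the hormone, was at 111.7, 148.5 and 107.9 in oxt6, against 661.1, 582.5 and 703.0 in the wild-type (log2 change -2.40 ± 0.20, adjusted p = 6.50e-05). OPCL1, the ligase that activates the product of OPR3 for beta-oxidation, was at 87.3, 130.6 and 114.5, against 261.6, 214.5 and 189.2 (log2 change -1.0 ± 0.22). Both fell on every oxt6 array. In the list of 27 jasmonate genes 2 had a named probe set from the annotation and 1 was tested, so the pathway as a whole is not described here.

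Of 25 probe sets of the study's ethylene-related class, 4 rose (16%, against 14.4% of all probe sets tested) and 5 fell (20%, against 10.6%), with a median log2 change of -0.26. The count of higher ones was 0 without oxt6 replicate 2 or 3 or wild-type replicate 2 and 1 without wild-type replicate 1, while 3 were lower without oxt6 replicate 3 or wild-type replicate 1. The clearest member was ERF4, a repressor of ethylene-responsive genes, at 741.1, 705.9 and 760.6 in oxt6, against 1812.6, 1952.7 and 2078.1 in the wild-type (log2 change -1.40 ± 0.15). ERF15, an activator of the same family, was at 137.2, 236.9 and 203.9, against 380.1, 409.6 and 557.9 (log2 change -1.23 ± 0.25). EIN3, the transcription factor at the head of the response, had a log2 change of 0.13 and did not pass (adjusted p = 0.669).

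**Figure D3:**
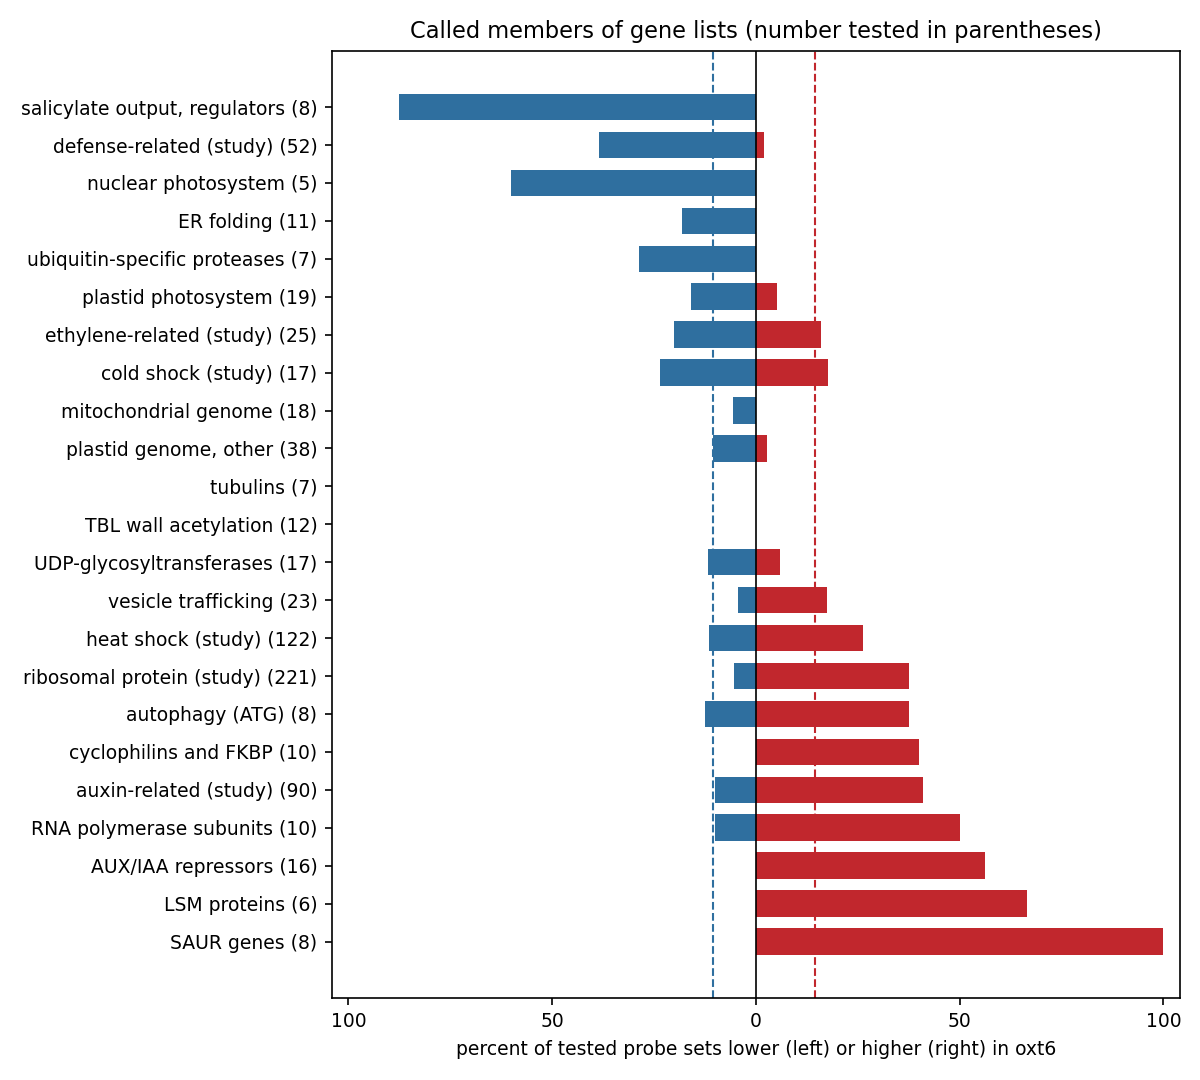
Percent of tested probe sets of 23 gene lists that were lower (blue, left of zero) or higher (red, right of zero) in oxt6 at an adjusted p under 0.05, with the number tested in parentheses. Dashed lines mark the percent of all 12000 probe sets that were lower (10.6) and higher (14.4). The salicylate list lies farthest to the left, with 7 of 8 lower, and the genes with a SAUR symbol farthest to the right, with 8 of 8 higher.

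Genes that answer to auxin stood at the other end. Auxin makes its receptor destroy AUX/IAA repressors, which frees auxin response factors to switch on AUX/IAA and SAUR genes, so both families are early auxin responses. SAUR genes encode small proteins of cell expansion. All 8 probe sets tested that carry a SAUR symbol rose in oxt6, where 14.4% of all probe sets rose, and their median log2 change was 1.39. Family members named here only by a locus number are not counted, so 8 of 8 does not stand for the whole family. Without oxt6 replicate 1, AT1G56150 and AT3G12830 of these were lower (log2 changes -1.45 and -0.93) and AT2G21200 was higher (2.18). SAUR63 was at 1317.4, 2059.8 and 1881.5 in oxt6, against 507.7, 446.5 and 436.9 in the wild-type (log2 change 1.89 ± 0.20). SAUR28 was at 278.1, 468.1 and 505.1, against 99.6, 97.0 and 110.9 (log2 change 1.97 ± 0.24), and SAUR15 at 944.3, 1312.4 and 1216.1, against 347.8, 294.8 and 416.6 (log2 change 1.71 ± 0.20). Every oxt6 array lay above every wild-type array for all 8, as at 20.1% of all probe sets tested. SAUR23 (log2 change 0.86) is read by a probe set of the x type, some of whose probes also match other genes.

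Of 16 AUX/IAA probe sets tested, 9 rose (56.25%, against 14.4% of all probe sets) and none fell (median log2 change 0.61). IAA18 was at 392.3, 572.1 and 515.4 in oxt6, against 90.7, 143.5 and 143.4 in the wild-type (log2 change 1.98 ± 0.24), IAA5 at 252.9, 408.4 and 377.1, against 88.0, 70.8 and 100.7 (1.97 ± 0.24), and IAA9 at 593.0, 405.1 and 416.7, against 171.3, 182.9 and 117.3 (1.58 ± 0.24). The repressor AXR3 (IAA17), which the family count by symbol leaves out, was at 484.8, 607.9 and 600.8, against 183.9, 111.7 and 184.5 (log2 change 1.84 ± 0.24). All 16 log2 changes were above 0, from 0.14 to 1.98. The count was 4 without oxt6 replicate 2 or 3 and 5 without wild-type replicate 1.

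In the study's class of auxin-related genes, assembled for these arrays, 37 of 90 probe sets rose (41.1%, against 14.4% of all probe sets tested). The count of lower ones was 9 (10%, against 10.6%), and only 5 without oxt6 replicate 3. The median log2 change was 0.45. AT1G29490, an auxin-responsive family protein, was the third highest of the named genes, at 157.9, 318.8 and 311.3 in oxt6, against 25.0, 24.2 and 24.8 in the wild-type (log2 change 3.29 ± 0.27). Of the 9 lower probe sets, AT5G35735 was at 135.6, 91.3 and 95.8, against 572.0, 646.8 and 550.1 (log2 change -2.46 ± 0.21), and AIR12, an auxin-inducible membrane protein that binds heme, at 112.0, 55.1 and 43.6, against 232.6, 204.6 and 205.6 (log2 change -1.71 ± 0.30). The efflux carriers PIN3 and PIN4 had log2 changes of -0.26 and -0.13 and did not pass.

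In the ubiquitin system, ligases choose the protein to be marked and ubiquitin-specific proteases (UBP) take ubiquitin off, and other enzyme classes of this system are not described here. Of 7 UBP probe sets 2 fell (28.6%, against 10.6% of all probe sets tested) and none rose, with a median log2 change of -0.44. With each array centred on its median 1 fell and 2 rose, and 3 fell and 1 rose without oxt6 replicate 1 (median -0.25). The 2 that fell were UBP24 (-0.67 ± 0.19) and UBP22 (-0.65 ± 0.19), both lost without oxt6 replicate 3 or wild-type replicate 1 or 2. Of 7 plant U-box ligases 1 fell (14.3%, against 10.6%), PUB19 (-0.72 ± 0.22), a call lost without oxt6 replicate 3, without wild-type replicate 1 or 2 and after centring. The other 6 had log2 changes of -0.53 (PUB23) to -0.36 (PUB22) without passing. Without oxt6 replicate 1, 3 of these ligases were lower. RCE1, the enzyme that conjugates the ubiquitin-like RUB protein to cullins and so activates the auxin receptor complex, was at 649.1, 879.3 and 904.4 in oxt6, against 212.7, 241.1 and 90.4 in the wild-type (log2 change 2.26 ± 0.34), and was named after its values were seen.

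Genes for parts of the machinery that makes and handles mRNA were among those that rose. NRPB5, a small subunit shared by nuclear RNA polymerases, was at 2312.4, 2386.0 and 2316.6 in oxt6, against 396.1, 410.4 and 245.3 in the wild-type (log2 change 2.77 ± 0.21, adjusted p = 4.51e-05). The 3 oxt6 values lay close together and far above the wild-type. In the family of other RNA polymerase subunits, 5 of 10 probe sets rose (50%, against 14.4% of all probe sets tested) and 1 fell (10%, against 10.6%). The median log2 change was 0.61, but 0.21 without oxt6 replicate 2, 0.33 without oxt6 replicate 3 and 0.17 with no filter on dim probe sets. The 5 were all small subunits: NRPB7 was at 305.1, 454.9 and 417.5, against 157.8, 164.8 and 132.1 (log2 change 1.35 ± 0.21), and NRPD7, NRPB6B, NRPE7 and NRPB6A had log2 changes of 1.06, 1.04, 1.03 and 0.88. The large catalytic subunits did not rise, with -0.30 for NRPA1 (not past the test), -0.10 for NRPC2 (not past the test) and -0.59 for NRPA2, which fell (adjusted p = 0.0496) but passed in none of the fits with an array left out.

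LSM proteins form rings that bind the ends of RNAs, in splicing (with the U6 RNA) and in mRNA decay. Of 6 probe sets 4 rose (66.7%, against 14.4% of all probe sets tested) and none fell (median log2 change 0.96). LSM3A was at 608.1, 826.8 and 787.4 in oxt6, against 257.2, 208.3 and 245.8 in the wild-type (log2 change 1.63 ± 0.20), LSM1A at 290.1, 360.6 and 333.7, against 170.1, 138.9 and 151.2 (1.09 ± 0.19), and LSM6B at 868.3, 1308.0 and 1148.2, against 566.5, 559.8 and 521.4 (0.99 ± 0.19). Of their close copies, LSM6A rose (0.92 ± 0.21, adjusted p = 0.0103), a call lost without oxt6 replicate 2 or 3, while LSM3B had a log2 change of -0.38 and LSM1B of 0.44 without passing. The difference between copies was not tested. Of the polyadenylation factors other than AtCPSF30, 3 probe sets were named and tested, and none passed: AT4G25550, the cleavage factor subunit CFIM-25, had a log2 change of -0.14 and the nuclear poly(A)-binding proteins AT5G65260 and AT5G10350 of 0.39 and -0.51.

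Ribosomal protein genes rose more often than they fell. In the study's class, assembled for these arrays, 83 of 221 probe sets were higher (37.6%, against 14.4% of all probe sets tested) and 12 lower (5.43%, against 10.6%). The median log2 change was 0.33, and 55 were higher without oxt6 replicate 2 or 3 and 27 lower without oxt6 replicate 1. Of 29 probe sets of cytosolic ribosomal proteins taken by symbol, 9 rose (31.0%) and 2 fell (6.90%). The median of that list was only 0.05, and -0.03 without wild-type replicate 1. AT3G04920, which encodes a 40S protein of the S24 type, was at 2044.3, 2030.6 and 1893.6 in oxt6, against 438.7, 421.6 and 323.3 in the wild-type (log2 change 2.34 ± 0.18). AT1G70190, of the L12 family, was at 228.9, 335.2 and 359.9, against 58.7, 42.2 and 34.5 (log2 change 2.75 ± 0.25). Those that fell included the acidic stalk proteins AT2G27720 (P2 type), at 1406.7, 1531.2 and 1319.9 in oxt6, against 3644.9, 3904.0 and 4569.4 in the wild-type (-1.50 ± 0.14), and AT4G25890 (P3 type), at 460.5, 582.0 and 475.4, against 1331.1, 1203.2 and 1714.7 (-1.47 ± 0.19). Many of these genes have near-identical copies, so the assignment of a change to 1 copy is uncertain.

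Of 122 probe sets of the study's heat shock class, which holds many chaperones, 32 rose (26.2%, against 14.4% of all probe sets tested) and 14 fell (11.5%, against 10.6%). The median log2 change was -0.01, and 0.10 with each array centred on its median, and 19 were higher without oxt6 replicate 3 or wild-type replicate 1. The count of lower ones was 6 without wild-type replicate 1 and 7 without oxt6 replicate 3 or wild-type replicate 2. Higher members were J-domain proteins such as AT5G59610 (log2 change 2.49 ± 0.28) and AT5G16650 (2.21 ± 0.21) and 2 heat shock factors. HSFA7A was at 94.6, 200.4 and 212.8 in oxt6, against 37.9, 40.4 and 42.0 in the wild-type (1.96 ± 0.29), and HSFB2A at 277.6, 326.0 and 325.7, against 112.4, 67.5 and 170.9 (1.49 ± 0.30). From a list of core heat shock genes, Hsp70-2, a cytosolic HSP70, fell and was at 16.0, 53.2 and 56.2 in oxt6, against 250.6, 197.1 and 165.3 in the wild-type (-2.43 ± 0.41), where 1 oxt6 array was at the lowest value of the scale. The factor HSFA3 fell too, at 30.6, 44.3 and 27.5, against 72.3, 77.3 and 69.7 (-1.10 ± 0.24).

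Of 11 genes for protein folding in the endoplasmic reticulum and its control, none rose and 2 fell (median log2 change -0.42). Of all probe sets tested, 14.4% rose and 10.6% fell. Among the 11, 5 fell without oxt6 replicate 1, and 1 fell without oxt6 replicate 3 or wild-type replicate 1 or 2. P58IPK, a co-chaperone of BiP, was at 83.4, 95.3 and 90.4 in oxt6, against 194.7, 216.0 and 230.2 in the wild-type (log2 change -1.24 ± 0.18), and ATERDJ3B, another, had a log2 change of -0.69, a call lost without oxt6 replicate 3 or any 1 wild-type array. BZIP60 and BZIP28, transcription factors of the unfolded protein response that are among the 11, had log2 changes of -0.46 and -0.49 and did not pass. Of 10 cyclophilins and FKBP proteins, which catalyse proline isomerization, 4 rose (40%, against 14.4% of all probe sets tested) and none fell. They were led by ROC5, at 2036.2, 2348.9 and 2263.1 in oxt6, against 1134.3, 1220.4 and 1115.4 in the wild-type (log2 change 0.94 ± 0.14).

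Of the mitochondrial electron carriers named, SDH2-2, the iron-sulfur subunit of complex II, was at 590.4, 687.0 and 606.8 in oxt6, against 184.1, 153.9 and 164.5 in the wild-type (log2 change 1.90 ± 0.18). Both cytochrome c genes rose, CYTC-2 with 209.2, 444.8 and 408.9 in oxt6, against 146.6, 111.6 and 119.0 in the wild-type (1.42 ± 0.28), and CYTC-1 by a log2 change of 0.72. NDB2, an external NADH dehydrogenase that bypasses complex I, fell and was at 63.3, 80.5 and 79.4 in oxt6, against 242.7, 262.4 and 157.2 in the wild-type (-1.53 ± 0.23). SDH2-1, the copy of SDH2-2, gave opposite answers at its 2 probe sets, with log2 changes of 0.65 (adjusted p = 0.054) and -0.70 (adjusted p = 0.0207), of which the second lost the call without oxt6 replicate 2 or 3 or wild-type replicate 1 or 2. Among the 18 genes of the mitochondrial genome that were tested, 1 fell (5.56%, against 10.6% of all probe sets) and none rose. The 1 that fell was nad1 (log2 change -1.09 ± 0.27), not past the test without wild-type replicate 3.

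ATG8 proteins are joined to the membrane of the autophagosome, in which cells digest their own contents. Of 8 autophagy probe sets 3 rose (37.5%, against 14.4% of all probe sets tested) and 1 fell (12.5%, against 10.6%). The median log2 change was 0.56. ATG8H was at 414.3, 625.0 and 628.9 in oxt6, against 145.7, 159.1 and 180.0 in the wild-type (log2 change 1.76 ± 0.22), ATG8G at 446.3, 660.8 and 638.0, against 278.1, 300.8 and 251.4 (1.05 ± 0.21), and ATG8F at 3439.0, 3951.0 and 3532.0, against 2412.9, 2429.8 and 1976.3 (0.68 ± 0.14). ATG8D moved the other way, at 1238.0, 1951.4 and 1793.8, against 2481.2, 2272.0 and 2850.7 (-0.63 ± 0.19), a call lost without any 1 wild-type array or without oxt6 replicate 3.

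Superoxide dismutases, which turn superoxide into hydrogen peroxide, went in both directions. FSD1, the iron enzyme, was at 438.9, 290.1 and 274.5 in oxt6, against 124.8, 54.4 and 106.1 in the wild-type (log2 change 1.85 ± 0.31). The copper and zinc enzymes fell: CSD1 was at 1700.1, 1752.2 and 1556.7, against 2622.1, 2846.3 and 2945.0 (-0.75 ± 0.13), CSD2, its plastid form, at 1520.1, 1181.7 and 1112.9, against 2129.2, 2421.6 and 2439.3 (-0.88 ± 0.16), and CCS, the chaperone that loads them with copper, at 91.5, 81.6 and 66.3, against 126.2, 152.6 and 196.5 (-0.97 ± 0.22). No value of an oxt6 array overlapped the wild-type for these 4 genes, as at 42.2% of all probe sets tested. The call of CCS was lost without oxt6 replicate 3.

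Nuclear genes of photosynthesis split the oxt6 arrays. LHCB4.1, an antenna protein of photosystem II, was at 4079.7, 1130.3 and 925.8 in oxt6, against 4432.2, 3940.4 and 4221.0 in the wild-type (log2 change -1.37 ± 0.43, adjusted p = 0.0408). LHCB4.2, its close copy, was at 4189.9, 1764.9 and 1588.6, against 4427.1, 5190.4 and 3907.9 (-0.98 ± 0.31, adjusted p = 0.0391). For both, oxt6 replicate 1 lay within the wild-type values and replicates 2 and 3 far below them. PSBY, a small subunit of photosystem II, followed the same order, at 1364.5, 440.7 and 438.2 in oxt6, against 1696.6, 2066.7 and 1740.7 in the wild-type (-1.51 ± 0.37). RCA, which activates Rubisco, was above the wild-type on replicate 1 and below it on the others, at 3350.6, 711.7 and 630.9, against 1503.9, 1569.0 and 1139.6 (-0.28 ± 0.51, adjusted p = 0.724). The 3'/5' signal of the controls had the same array apart, with 1.09 on oxt6 replicate 1 and 2.75 or more on the others, and its part in these values was not tested. Without oxt6 replicate 1 the log2 changes were -2.03 for LHCB4.1, -1.42 for LHCB4.2, -2.05 for PSBY and -1.05 for RCA (adjusted p = 5.85e-04), while without oxt6 replicate 2 or 3 both LHCB4 genes and PSBY lost the call. Both LHCB4 genes also lost it without any 1 wild-type array and under both other scalings.

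**Figure D4:**
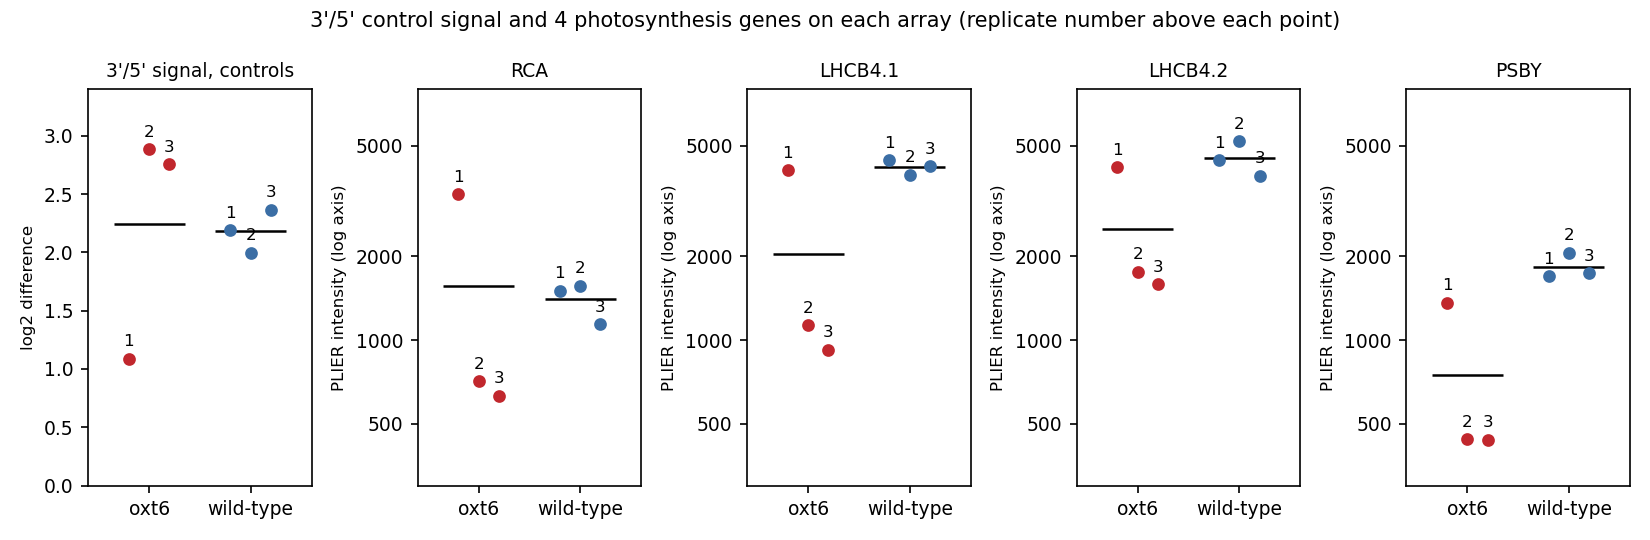
Mean log2 difference between 3' and 5' probe sets of 3 control genes (left, linear axis) and PLIER intensity of RCA, LHCB4.1, LHCB4.2 and PSBY (log axes) on each oxt6 and wild-type array, with replicate numbers above the points and arithmetic group means as lines. On oxt6 replicate 1 the 3'/5' signal is lowest, at 1.09, and the 4 genes are highest among the oxt6 arrays, as for RCA with 3350.6 against 711.7 and 630.9.

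The same order of arrays was seen in HPR, a peroxisomal reductase of photorespiration (795.1, 265.8 and 214.2 in oxt6, against 370.3, 380.0 and 353.3 in the wild-type), in the tubulins TUA6 (404.6, 131.5 and 124.4, against 264.7, 267.7 and 317.7) and TUB6 (375.9, 151.7 and 157.0, against 285.9, 311.7 and 242.7), and none of these passed the test. For them the spread within oxt6 was larger than the difference between groups. PSBW, another small subunit of photosystem II, passed with less spread, at 4964.4, 4015.3 and 3630.7, against 6721.0, 6568.8 and 6093.9 (-0.63 ± 0.13), whereas PSAN, a photosystem I subunit, did not (0.28). With each array centred on its median, none of the 5 photosystem probe sets of the nucleus passed.

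Of 19 photosystem probe sets of the plastid genome 1 rose (5.26%) and 3 fell (15.8%), and of 8 for the NDH complex 1 rose (12.5%). Of 38 others 1 rose (2.63%) and 4 fell (10.5%), where 14.4% of all probe sets tested rose and 10.6% fell. The medians were -0.26, 0.01 and -0.14. The 38 others had 4 higher and a median of 0.07 without wild-type replicate 3, none higher without oxt6 replicate 3 or wild-type replicate 1 or 2, 2 lower without oxt6 replicate 2 or wild-type replicate 1, and 2 higher and 1 lower with each array centred on its median. The NDH median was -0.20 without wild-type replicate 2 and 0.20 without wild-type replicate 3. The highest was ndhA, a subunit of the NDH complex with an intron, at 589.1, 765.3 and 668.6 in oxt6, against 204.1, 189.9 and 168.4 in the wild-type (log2 change 1.84 ± 0.19), while its neighbour in the operon, ndhI, was at 3780.9, 3983.2 and 4151.6, against 3712.8, 3927.7 and 4193.3 (0.01). petA, cytochrome f, fell and was at 1202.6, 1000.5 and 1015.1 in oxt6, against 1951.7, 1902.6 and 2039.6 in the wild-type (-0.88 ± 0.15). rbcL, the large subunit of Rubisco, was at 202.6, 154.2 and 205.6, against 374.8, 253.7 and 450.8 (-0.91 ± 0.24, adjusted p = 0.0205), a call lost without oxt6 replicate 2 or wild-type replicate 1 or 3. Plastid mRNAs lack the long poly(A) tails of nuclear mRNAs. Of the 19 photosystem probe sets, none was lower without oxt6 replicate 3 or wild-type replicate 1 and 5 were lower without oxt6 replicate 1. With each array centred on its median none passed in either direction.

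Genes of the clock that peak towards evening were lower in the 3 cases that could be tested, of 12 listed, where 10.6% of all probe sets tested fell. GRP7, an RNA-binding protein under clock control, was at 1529.3, 976.0 and 1029.1 in oxt6, against 2403.4, 2123.9 and 3851.6 in the wild-type (log2 change -1.23 ± 0.24). CCR1 (GRP8), its copy, was at 367.4, 237.9 and 266.2, against 541.3, 437.3 and 756.1 (-0.98 ± 0.25), a call lost without oxt6 replicate 2 or 3. GI, a regulator of the clock and of flowering, was at 323.6, 353.3 and 316.4, against 522.5, 537.5 and 485.9 (-0.64 ± 0.17), a call lost without oxt6 replicate 3 or wild-type replicate 1 or 2. Among the study's cold shock genes, 3 of 17 rose and 4 fell, and 1 rose without oxt6 replicate 2 or wild-type replicate 1. SRC2 fell most, at 753.6, 297.0 and 340.3, against 1843.5, 2197.4 and 1398.7 (-2.07 ± 0.32), and LTI78, a gene of cold and drought, was at 2105.1, 1259.8 and 1008.1, against 3098.2, 3026.5 and 3028.8 (-1.14 ± 0.23). RCI2B, a small membrane protein, rose and was at 1872.9, 2791.0 and 2387.7, against 1069.7, 1098.9 and 1193.6 (1.05 ± 0.17), while COR15A, a plastid cold protein, had a log2 change of -0.22 and did not pass.

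Calmodulin-like proteins held 1 of the highest genes, CML23, at 619.0, 649.2 and 597.2 in oxt6, against 71.6, 67.7 and 204.6 in the wild-type (log2 change 2.63 ± 0.36). CML43 (-1.28 ± 0.25) and CML37 (-1.13 ± 0.23), which bind calcium in the same way, fell. Of the 6 calmodulin-like genes tested, 1 rose (16.7%, against 14.4% of all probe sets tested) and 2 fell (33.3%, against 10.6%). Only 1 of the 6 was lower without wild-type replicate 1 or without wild-type replicate 2. YAB5 and YAB3, transcription factors that mark the lower side of the leaf, also went apart: YAB5 was at 312.0, 460.7 and 434.1 in oxt6, against 102.4, 111.3 and 71.9 in the wild-type (2.07 ± 0.24), and YAB3 at 78.0, 105.9 and 75.8, against 136.3, 134.5 and 246.6 (-0.94 ± 0.26), a call lost without oxt6 replicate 3 or wild-type replicate 3. Among sugar transporters, SWEET2, which holds sugar in the vacuole, was at 270.7, 360.6 and 350.2, against 95.4, 87.6 and 91.6 (1.82 ± 0.19). It was the only higher one of 10 SWEET genes (10%, against 14.4% of all probe sets tested), of which 5 were higher without oxt6 replicate 1. RR16, a type A response regulator of cytokinin, was at 205.4, 386.3 and 388.7, against 104.5, 89.6 and 96.3 (1.69 ± 0.26).

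In membrane traffic the median over 23 probe sets was -0.16, with 4 higher and 1 lower. The share of higher ones was near the 14.4% of all probe sets tested, and that of lower ones was below the 10.6%. Of the 4, VPS46.2, VPS24.1 and VPS20.1 belong to ESCRT-III and its partners, which pinch vesicles into endosomes (log2 changes 0.92, 0.88 and 0.61), and all 3 lost the call without oxt6 replicate 3, VPS46.2 also without oxt6 replicate 2, VPS24.1 without wild-type replicate 2 and VPS20.1 without oxt6 replicate 2 or any 1 wild-type array. Log2 changes in the list ran from -1.12 to 1.61. RABC2A, a Rab GTPase of membrane traffic that is not in this list, was at 189.5, 181.9 and 216.7 in oxt6, against 26.1, 37.7 and 30.4 in the wild-type (log2 change 2.62 ± 0.20). Named after their values were seen, VTI1B, a SNARE protein of membrane fusion, was at 5531.7, 4607.2 and 4108.3, against 1197.2, 1367.4 and 788.1 (2.11 ± 0.21), and AP19, a small subunit of a clathrin adaptor, at 1294.0, 1740.4 and 1608.3, against 400.7, 396.1 and 284.1 (2.11 ± 0.20).

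None of 12 TBL genes of cell wall acetylation, 7 beta-glucosidases, 7 tubulins or 5 tetraspanins passed in either direction, against 25.0% of all probe sets tested. Of 17 UDP-glycosyltransferases 1 rose and 2 fell, of 11 cytochrome P450 genes 1 rose and 1 fell, and of 11 expansins, which loosen cell walls, 2 fell and none rose. Without oxt6 replicate 1, 5 expansins, 4 glycosyltransferases and 2 tubulins were lower, and without oxt6 replicate 3 or wild-type replicate 1 no expansin was. CYP83B1, an enzyme of indole glucosinolate synthesis that is not among those 11 and was named after its values were seen, fell and was at 365.9, 244.0 and 203.6 in oxt6, against 1032.9, 820.0 and 853.6 in the wild-type (-1.77 ± 0.23). HCT, an enzyme of the lignin pathway, was at 210.4, 205.2 and 199.2, against 483.9, 554.0 and 462.9 (-1.28 ± 0.18), and AT3G13610 (F6'H1), which makes the coumarin scopoletin, at 17.8, 17.7 and 17.9, against 213.9, 212.1 and 96.7 (-3.13 ± 0.31), near the lowest value of the scale in oxt6.

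Some of the largest single changes belonged to no list. Of the 100 highest probe sets, at log2 changes of 1.93 to 3.35, 80 have a gene named, and of the 100 lowest, at -4.03 to -1.77, 55. The lowest probe set has no gene named here. AT5G12050 was at 949.3, 1532.3 and 1340.7 in oxt6, against 169.7, 176.4 and 72.3 in the wild-type (log2 change 3.26 ± 0.33), and AT5G02540 at 706.5, 752.0 and 720.2, against 89.6, 91.7 and 106.0 (2.91 ± 0.18). AT2G43760, of the MoaE family of molybdopterin synthesis, was at 731.0, 960.0 and 879.0, against 134.4, 139.5 and 152.3 (2.58 ± 0.19). For each, every oxt6 value lay above every wild-type value, but the highest named genes were chosen from those without overlap, so this adds no evidence.

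Higher genes named after their values were seen add other functions. CYCD3;3, a D-type cyclin that drives entry into the cell cycle, was at 296.0, 484.2 and 454.7 in oxt6, against 80.0, 56.1 and 93.1 in the wild-type (log2 change 2.41 ± 0.26). FHL, which carries phytochrome A into the nucleus, was at 376.6, 597.7 and 587.9, against 113.4, 109.0 and 115.7 (2.17 ± 0.22), and bZIP1, a transcription factor of the low-energy response, at 2956.9, 3917.5 and 3604.3, against 838.9, 787.1 and 804.2 (2.1 ± 0.15). CYN, the cyanase that breaks down cyanate, was at 2005.3, 2723.6 and 2474.3, against 551.8, 468.4 and 485.5 (2.25 ± 0.17), and CaS, a calcium sensor of the thylakoid, at 560.7, 568.8 and 534.9, against 139.3, 107.3 and 106.0 (2.24 ± 0.19). In all 5 the groups were apart, as at 42.2% of all probe sets tested, and the call held in every alternative tried.

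Among the lower genes, AT5G55450 was at 59.8, 83.5 and 66.4 in oxt6, against 618.6, 700.5 and 687.3 in the wild-type (log2 change -3.25 ± 0.20), and AT5G03350 at 249.4, 177.4 and 166.4, against 2060.1, 2335.3 and 1215.6 (-3.20 ± 0.27). AT5G10760 (AED1), an aspartyl protease whose name records that it depends on EDS1, was at 47.7, 27.8 and 17.1, against 185.5, 209.1 and 158.5 (-2.65 ± 0.32). GER3, a germin-like protein of the cell wall, was at 260.5, 354.6 and 320.7, against 1377.1, 1548.0 and 2055.1 (-2.40 ± 0.21). These 4 genes passed in every alternative in which they were tested. They were lower on every oxt6 array, which was a condition for choosing the lowest named genes.

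The share of genes that were higher in oxt6 differed with the length of the gene. For 6382 probe sets of nuclear protein-coding genes named by the annotation table, of which 970 were higher (15.2%) and 615 lower (9.64%), the distance from start to end of the gene in the RefSeq table of TAIR10.1, introns included, had a median of 1760.5 bases for the higher, 2044 for the lower and 2251 for the not called. The share of higher probe sets was 25.0% for genes of 1001 to 1500 bases, 22.4% at 1501 to 2000, 16.0% at 2001 to 2500, 10.5% at 2501 to 3000, 5.74% at 3001 to 4000, 3.44% at 4001 to 5000 and 2.16% above 5000, with 16.3% for genes up to 1000 bases. The share of lower probe sets showed no such order, between 6.79% and 11.8%. Signal differed with length as well, from a median log2 of 7.38 at 1001 to 1500 bases to 6.45 above 5000, and among the brightest tercile of these probe sets, which were all above a mean log2 of 7.30, the share of higher ones was 36.2% at 1001 to 1500 bases, 10.8% at 3001 to 4000 and 0 of 55 above 5000.

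In that brightest tercile 64 of 506 probe sets were lower at 1001 to 1500 bases and 11 of 55 above 5000. Without oxt6 replicate 1, the array apart in its 3'/5' signal, the share of higher ones was 35.4% at 1001 to 1500 bases, 15.6% at 2501 to 3000 and 7.89% above 5000, against 22.3% over the 6267 of these probe sets tested in that fit, of which 13.2% were lower. Length is that of the whole gene and not of the mRNA, and the part of the position of the probes and of signal in this order was not tested.

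**Figure D5:**
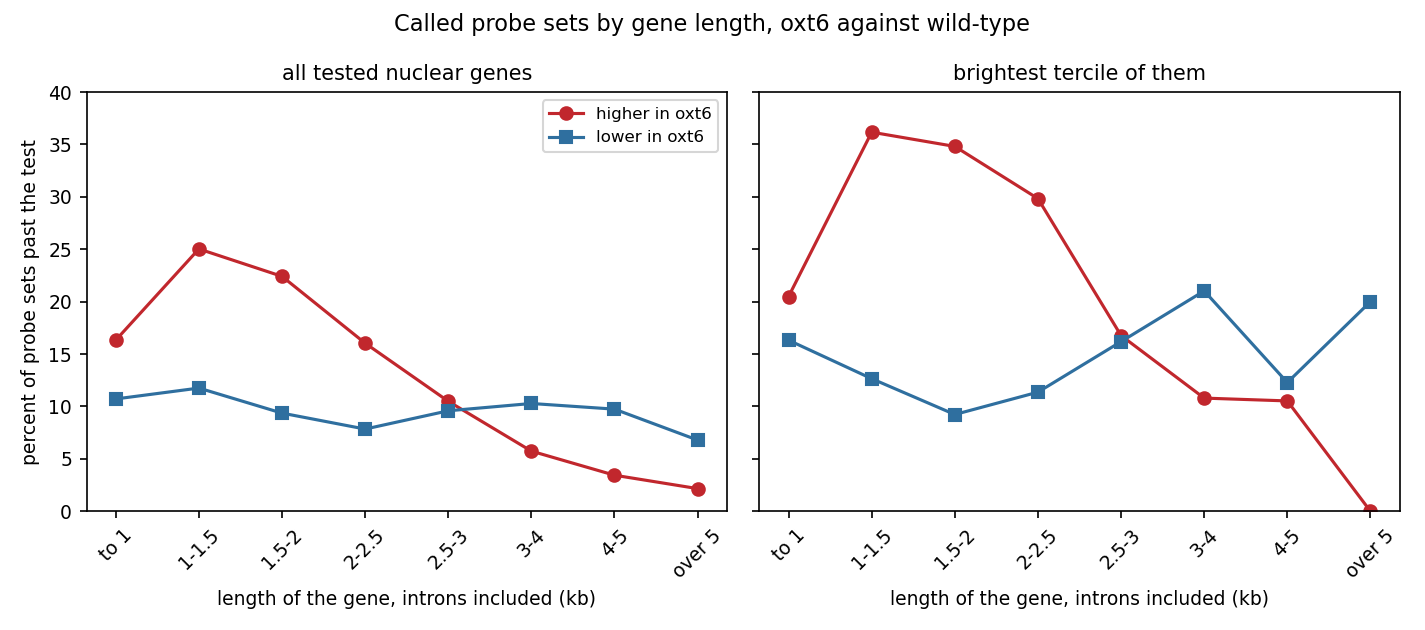
Percent of probe sets higher (red circles) or lower (blue squares) in oxt6 at an adjusted p under 0.05 by length of the gene in kb, introns included, for all 6382 tested nuclear genes named by the annotation table (left) and for the brightest tercile of them (right). The share of higher probe sets is largest at 1 to 1.5 kb, 25.0% on the left and 36.2% on the right, and lowest above 5 kb, 2.16% and 0.

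Higher and lower genes were spread over the genome. Between 13.8% and 17.5% of the probe sets of each of the 5 chromosomes were higher and between 9.20% and 10.0% lower. Of the 20 genes nearest to At1g30460, the site of the insertion, 4 were tested, of which 1 fell and none rose (log2 changes of -0.62 to 0.31). Of the 19 genes for which several probe sets were tested, none was called in both directions.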

How the data were processed

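RNA from leaves was hybridised to Affymetrix ATH1 arrays, 1 array per sample. The authors summarised the probes with PLIER (version not given in the sources used here), and the deposited values are linear intensities, none of them below 16. Here log2(intensity + 1) was fitted with limma 3.58.1 (lmFit and eBayes with a trend) in R 4.3.3, with tables joined in Python 3.11.15. The 64 control probe sets were left out, and the 12000 brightest of 22746 by mean log2 over the 6 arrays were tested, which left out means under an intensity of 47.3. Probe sets with a Benjamini-Hochberg adjusted p under 0.05 were called. Every adjusted p is from this limma fit, every log2 change is oxt6 minus wild-type, and the figure after ± is its SE. Only 3 arrays stood in each group, which limits the precision, and an exact permutation test of 3 against 3 cannot go below p = 0.1. The labels call the arrays biological replicates, and p-values measure the spread between these pooled samples. On simulated arrays the fit recovered 63 of 200 changes of log2 1 and 188 of 200 of log2 2, with 1 and 6 false calls. The simulation changed only 200 of 12000 probe sets and drew the spread of each independently. It held no array apart like oxt6 replicate 1, so its false calls do not measure those of the real arrays.

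Gene names came from the platform annotation for 13513 probe sets, where it gives 1 gene, and from the study's lists for 505 more, 134 of which the study listed for their change. The annotation gives several genes for 503, which were not named as 1 gene, and 8225 are unnamed here. Of the 12000 tested, 7099 have a gene named. The 92 lists were 42 textbook pathways (844 members, 176 with a named probe set), 43 families by symbol and 7 classes of the study, and 52 had at least 5 probe sets tested. Members and lists were chosen with earlier results of these data known. Named genes were the 20 highest and 20 lowest that passed without overlap, up to 4 of each list in each direction and up to 2 bright members that did not pass, At1g30460, THI2.2 and tissue markers. Another 17 genes were picked after their values were seen and are so marked in the text, and list members given beyond the rule, such as SNC1, NPR3, NPR4 and NRPA2, were also chosen with their values known. Lists are described by counts and medians, with no test of the list, and some items are not reported here. In all, 17 alternatives were tried: scaling, filter, offset, samples in the fit, replicate block, array weights, the methods' t-test, a stricter threshold and leaving out each array.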

Additional observations from a re-analysis of the deposited data

Results flagged for a closer look

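A control probe set outside the comparison, for 5S ribosomal RNA, was higher on all 3 oxt6 arrays than on all 3 wild-type arrays. It read 983.0, 968.1 and 827.3 in oxt6, against 597.5, 223.7 and 233.4 in the wild-type, a log2 difference of 1.55 (p = 0.1 in a two-sided exact permutation test, its lower limit with 3 arrays a group).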

How the results depend on the processing

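No probe set called in the fit as reported was called in the opposite direction in any of the 17 alternatives. The count of 2999 became 1743 to 4216 with 1 array left out, 1580 at an adjusted p under 0.01, 1920 with the methods' t-test at its unadjusted threshold and 1527 after Benjamini-Hochberg adjustment of it. Array weights gave 8307 calls, but their estimation did not converge and put nearly all weight of oxt6 on replicate 3, so this setting is given for completeness. The replicate numbers did not pair the arrays (correlations of same-numbered deviations of 0.117, -0.231 and 0.142). The fit with a replicate block called 3255 probe sets, 2824 of them shared with the reported fit, and not every array correlated best with its own number.

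Counts of list members moved by over 1.5 times as follows. Higher AUX/IAA genes were 4 to 9 with 1 array left out. Higher SAUR genes were 5 under both forms of the methods' t-test, and higher ribosomal protein genes 51 and, adjusted, 41, against 55 to 103 with 1 array left out. Lower defense-related genes were 31 with array weights and 13 to 23 with 1 array left out. The AUX/IAA median was 0.71 after centring on the median, 0.47 with no filter, 0.70 for the 8000 brightest probe sets and 0.55 to 0.69 with 1 array left out. The salicylate median was -2.25 with no filter, -2.40 with an offset of 16 and -2.95 to -2.66 with 1 array left out. The 3'/5' difference of 0.06 was -0.051 with the older control probe sets, an alternative chosen after seeing the data, and -0.27 to 0.63 with 1 array left out. UPF3 and TBL25 changed sign with array weights (-0.40 and -0.32). Of the 202 called probe sets among those taken by the rule for named genes, 107 lost the call in no alternative. Dim probe sets at or near the floor of 16 limit what could be measured for the lowest genes in oxt6. The cause of these changes was not tested.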
